A study of Homo sapiens with 6 samples.

Results

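Epidermal growth factor (EGF) receptor signalling was described here through 10 genes: the ligand genes EREG, AREG, HBEGF, TGFA, BTC and EPGN, the receptor genes EGFR, ERBB2 and ERBB3, and ERRFI1, which encodes an inhibitor of the receptors. They were chosen by gene symbol from a table of 58735 genes, with their values in all 6 libraries already known. Their differences between groups, and the calls that the fit across all genes makes on them, are therefore given as a description and not as independent tests. Of the 10, 8 reached a mean of 1 FPKM over the 6 libraries and entered the fit across 12319 genes. EPGN and ERBB3 did not reach it. FPKM is the number of sequenced fragments per kilobase of gene length, scaled for depth, so levels can be compared between genes.

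The libraries came from SK-MES-1, an established line grown from a squamous cell carcinoma of the human lung. KRT6A, a keratin of stratified epithelia, was the stated target of a transient knockdown. The study has 3 groups of 2 libraries: NC, the control, and si1 and si2, in which KRT6A was targeted. The labels give neither the meaning of the group names nor the sequences of the reagents. They do not say whether the 2 libraries of a group came from separate cultures. If they did not, the p-values below measure only technical spread.

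The ligands are made as membrane-anchored precursors that ADAM-family proteases cut free. A ligand bound to EGFR brings receptors together in pairs, and the active kinases signal through RAS and ERK and through PI3K and AKT. ERBB2 has no known soluble ligand and acts as a partner, whereas ERBB3 binds neuregulins and has a weak kinase. Several of the ligand genes, and ERRFI1, are themselves switched on by the pathway. EGFR signalling is a main growth pathway of squamous carcinomas.

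Each library held 14948607 to 17401392 reads, recovered from FPKM and gene length. KRT6A itself (ENSG00000205420, chr12:52487174-52493257, hg38) had 0 reads in all 6 libraries, which allows up to 0.0583 to 0.0678 FPKM, so its knockdown was not detectable and the labels could not be checked from it. Of 12 squamous and basal markers, only TP63 and PKP1 reached a mean of 1 FPKM, and KRT6A, DSG3 and CALML3 were at 0 throughout. TP63 had group means of 6.11, 5.35 and 11.9 FPKM for NC, si1 and si2, and PKP1 of 19.0, 18.4 and 9.91, so they moved in opposite directions in si2. KRT5 and KRT14 did not pass 0.0133 and 0.0268 FPKM. Of 8 epithelial markers 6 reached that level, but CDH1 stayed at or below 0.256 FPKM. Of 9 mesenchymal markers 5 reached a mean of 1 FPKM, and VIM was the highest, at 179 to 246 FPKM. COL1A2 and ZEB2 were at 0 throughout, and COL3A1 and DCN did not pass 0.0388 and 0.00952 FPKM. No leukocyte, endothelial or alveolar marker reached a mean of 1 FPKM. The epithelial markers summed to 369 to 396 FPKM in NC, 378 to 385 in si1 and 273 to 285 in si2. Of these markers, KRT7 and KRT19 stood at 0.620 and 0.612 times NC in si2, CLDN4 at 0.523 times and KRT8 at 0.906 times. EPCAM stood at 1.36 times, KRT18 at 1.21 times and CDH1, at its low level, at 4.41 times. All of these were without overlap with NC, whereas CLDN7, at or below 0.192 FPKM, overlapped it. The part of these markers in the results below was not tested. In bulk RNA, fewer cells with a transcript and less of it per cell cannot be told apart.

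EREG, AREG and BTC were higher in si2 than in NC, by 2.44-fold, 2.56-fold and 2.41-fold in mean FPKM. In si1, EREG stood at 0.398 times its NC mean and AREG at 0.675 times, while BTC was at 1.14 times. HBEGF was lower in both knockdown groups, at 0.286 times NC in si1 and 0.595 times in si2. EGFR was at 0.623 times NC in si1 and at 0.977 times in si2. The groups labelled with the same target thus lay on opposite sides of NC for EREG and AREG, with si1 below and si2 above, as for 9.74% of all genes tested. ERBB2 lay the other way round, as did 8.05%, and the 2 kinds together made up 17.8%.

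Of the 8 genes in the fit, 5 were lower and 1 was higher in si1 than in NC at an adjusted p under 0.05. Over all genes tested, 12.9% were called lower and 9.47% higher in that comparison, 22.4% in all. In si2 against NC, 4 of the 8 were called higher and 1 lower, where 13.6% of all genes were higher and 15.4% lower, 29% in all. In si2 against si1, 7 were called higher and 1 lower, where 19.9% and 18.6% of all genes were, 38.5% in all. The 8 genes had median log2 differences of −0.53, 0.37 and 0.71 in these comparisons, beside −0.01, 0.00 and 0.01 over all genes. Since the genes were picked with these values in view, nothing is read from the shares. The si1 and si2 comparisons with NC share the same 2 control libraries.

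**Figure D1:**
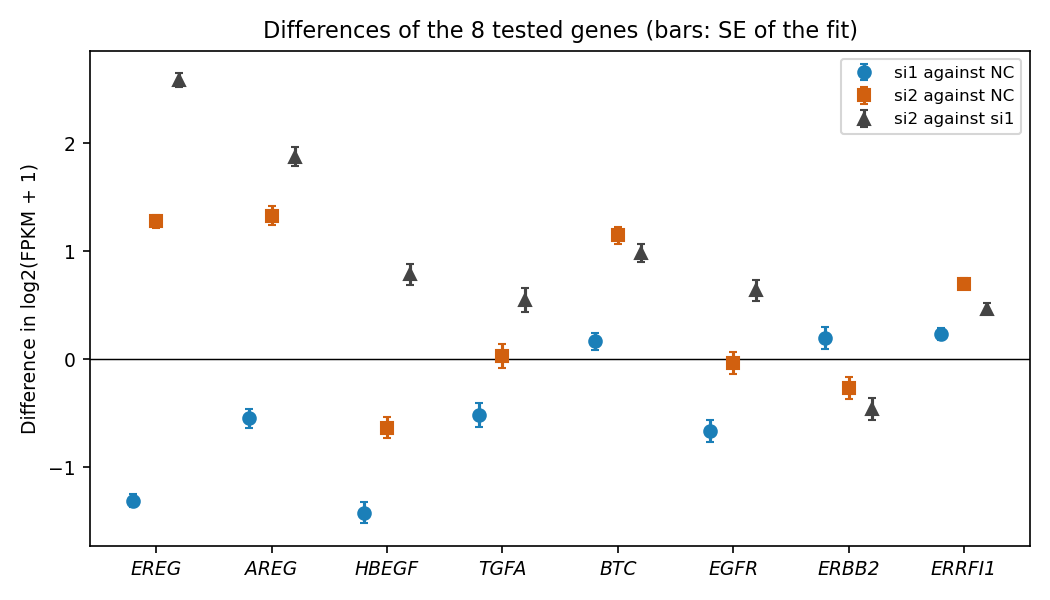
Differences in log2(FPKM + 1) (vertical axis) of the 8 genes that entered the fit, for si1 against NC (circles), si2 against NC (squares) and si2 against si1 (triangles), with bars for the SE of the fit. EREG runs from −1.31 in si1 to 1.28 in si2, and HBEGF is below 0 in both.

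The promoters of the 4 ligand genes with the widest differences are shown. EREG and AREG lie side by side on chromosome 4 and differed in the same directions, and BTC is their neighbour. HBEGF, on chromosome 5, was below NC in both knockdown groups. The sequences are from RefSeq (GRCh38.p14), which matched 9 of the 10 genes, all but ERBB3. Each window runs from 250 bases before the annotated start to 50 after it, 300 bases in all, written 5′ to 3′ on the gene's strand. Capitals mark matches, on either strand, to the motifs described after them.
EREG, chr4:74364895-74365194, plus strand: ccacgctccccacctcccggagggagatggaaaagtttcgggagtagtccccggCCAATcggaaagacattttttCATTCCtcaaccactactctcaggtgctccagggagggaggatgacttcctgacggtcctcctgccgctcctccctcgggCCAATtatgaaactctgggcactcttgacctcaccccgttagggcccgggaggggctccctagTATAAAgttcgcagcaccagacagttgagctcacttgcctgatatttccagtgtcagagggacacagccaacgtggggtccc
AREG, chr4:74444886-74445185, plus strand: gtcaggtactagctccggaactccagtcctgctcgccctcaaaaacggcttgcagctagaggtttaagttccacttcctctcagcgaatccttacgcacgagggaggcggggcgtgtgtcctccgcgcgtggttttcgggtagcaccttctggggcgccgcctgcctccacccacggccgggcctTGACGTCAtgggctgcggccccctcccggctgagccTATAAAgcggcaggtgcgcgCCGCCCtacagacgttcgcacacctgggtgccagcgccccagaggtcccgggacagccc
BTC, chr4:74794474-74794773, minus strand: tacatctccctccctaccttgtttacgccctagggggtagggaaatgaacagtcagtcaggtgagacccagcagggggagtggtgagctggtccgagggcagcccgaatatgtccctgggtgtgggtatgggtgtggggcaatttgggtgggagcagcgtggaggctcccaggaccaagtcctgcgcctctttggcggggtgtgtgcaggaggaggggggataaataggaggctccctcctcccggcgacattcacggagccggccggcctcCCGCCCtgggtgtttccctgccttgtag
HBEGF, chr5:140346554-140346853, minus strand: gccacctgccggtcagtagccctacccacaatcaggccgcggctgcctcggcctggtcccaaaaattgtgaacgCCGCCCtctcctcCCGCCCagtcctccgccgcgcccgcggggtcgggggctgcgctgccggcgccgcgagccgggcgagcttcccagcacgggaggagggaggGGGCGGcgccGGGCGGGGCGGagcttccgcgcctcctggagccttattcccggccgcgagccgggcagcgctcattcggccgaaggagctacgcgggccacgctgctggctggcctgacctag

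The motifs searched were TGANTCA, bound by AP-1, TGACGTCA, the cAMP response element, GGAATG, bound by TEAD factors, TATAAA, the TATA box, CCAAT, and GGGCGG, the GC box. They cover separate bases except where GC boxes overlap each other, as in HBEGF. EREG and AREG both hold a TATA box, at −32 to −27 and at −29 to −24 (start base counted as 0), as does EPGN at −29 to −24. Of 35116 promoter windows of this length in RefSeq, 11.5% hold one. The first-start windows of BTC, HBEGF, TGFA and EGFR hold none. That of the second EGFR start holds 2 TATA boxes, at −146 to −141 and at −36 to −31. EREG also holds a TEAD match at −175 to −170, present in 14.0% of all windows, and 2 CCAAT matches, present in 34.6%. The window of the second EGFR start holds a TEAD match as well, at −114 to −109. AREG holds the cAMP response element at −65 to −58, which 1.85% of windows hold. HBEGF holds 5 GC boxes, TGFA 4 and EGFR 3, a motif found in 45.0% of windows. GC content was 57.7% for EREG and 66.3% for AREG, against 75.0% for HBEGF and 75.3% for EGFR and a median of 58.7% over all windows. No AP-1 match was found in the first-start window of any ligand gene. ERBB2 holds 1, and the window of the second EGFR start holds 2, in a motif that 7.71% of windows hold. A match says only that these letters are there.

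EREG (ENSG00000124882, chr4:74365143-74388751) encodes epiregulin, a ligand of EGFR and ERBB4. Its NC libraries held 97.5 and 94.8 FPKM, with 36.6 and 40.0 in si1, and 238 and 231 in si2. Both si1 libraries lay below both NC libraries, and both si2 libraries above them. The log2 difference was −1.31 in si1 against NC, 1.28 in si2 against NC and 2.58 in si2 against si1 (SE 0.0618 each). In size, the last ranked 7 of the 12319 genes tested. EREG rested on 3419 to 21490 reads per library. Over 13 alternative settings its difference ran from −1.37 to −1.25 in si1 and from 1.25 to 1.30 in si2.

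AREG (ENSG00000109321, chr4:74445134-74455009) encodes amphiregulin, an EGFR ligand of epithelia. Its values were 33.3 and 29.1 FPKM in NC, 19.7 and 22.3 in si1, and 81.0 and 78.4 in si2, again with no overlap between any pair of groups. The log2 differences were −0.55, 1.33 and 1.87 in the same order of comparisons (SE 0.0884). The drop in si1 was smaller than for EREG, with NC at 1.48 times the si1 mean. Without NC replicate 1, the si1 difference was −0.45 and was no longer called.

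BTC (ENSG00000174808, chr4:74744759-74794686) encodes betacellulin, which binds EGFR and ERBB4. It was at 6.46 and 5.68 FPKM in NC, 6.89 and 6.95 in si1, and 14.8 and 14.5 in si2. The si2 libraries stood apart from the other 4. The log2 difference was 1.147 in si2 against NC and 0.16 in si1 against NC (SE 0.0806), the latter not called although the groups did not overlap. Groups without overlap are common with 2 libraries each. In si1 against NC, 3 of the 8 genes were higher and 5 lower without overlap, where 30.1% and 32.4% of all genes were, 62.5% together. In si2 against NC 4 were higher and 3 lower, where 35% and 34.5% of all genes were, 69.4% together, and TGFA overlapped. In si2 against si1 7 were higher and 1 lower, where 36.3% and 33.8% of all genes were, 70% together.

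HBEGF (ENSG00000113070, chr5:140332843-140346631) encodes heparin-binding EGF-like growth factor. Unlike EREG, AREG and BTC, it was below NC in si2. It had 7.30 and 6.91 FPKM in NC, 1.88 and 2.17 in si1, and 3.99 and 4.47 in si2. Both knockdown groups lay below NC, and si1 lay below si2. The log2 differences were −1.42 in si1 and −0.63 in si2 (SE 0.0973). The added 1 FPKM makes these smaller than the ratios, since NC was at 3.4998 times the si1 mean and 1.68 times the si2 mean. HBEGF rested on 93 to 368 reads per library.

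TGFA (ENSG00000163235, chr2:70447280-70554193) encodes transforming growth factor alpha. It stood at 11.9 and 10.1 FPKM in NC, 7.33 and 7.38 in si1, and 10.2 and 12.4 in si2. Only si1 stood apart, and NC and si2 overlapped. The log2 difference in si1 against NC was −0.52 (SE 0.111), and in si2 it was 0.03. The si1 call was lost without NC replicate 1 (−0.41), without si1 replicate 1 (−0.51), without si1 replicate 2 (−0.52) and without the filter on low values.

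EPGN (ENSG00000182585, chr4:74308473-74315307), the gene of epithelial mitogen, was near the limit of detection. It had 0 and 12 reads in NC, 5 and 2 in si1, and 6 and 0 in si2, or at most 0.377 FPKM. A count of 0 allows up to 0.099 FPKM in NC replicate 1 and 0.109 in si2 replicate 2. No difference was detectable at this depth. Every group had 1 library above 3 reads and 1 below.

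**Figure D2:**
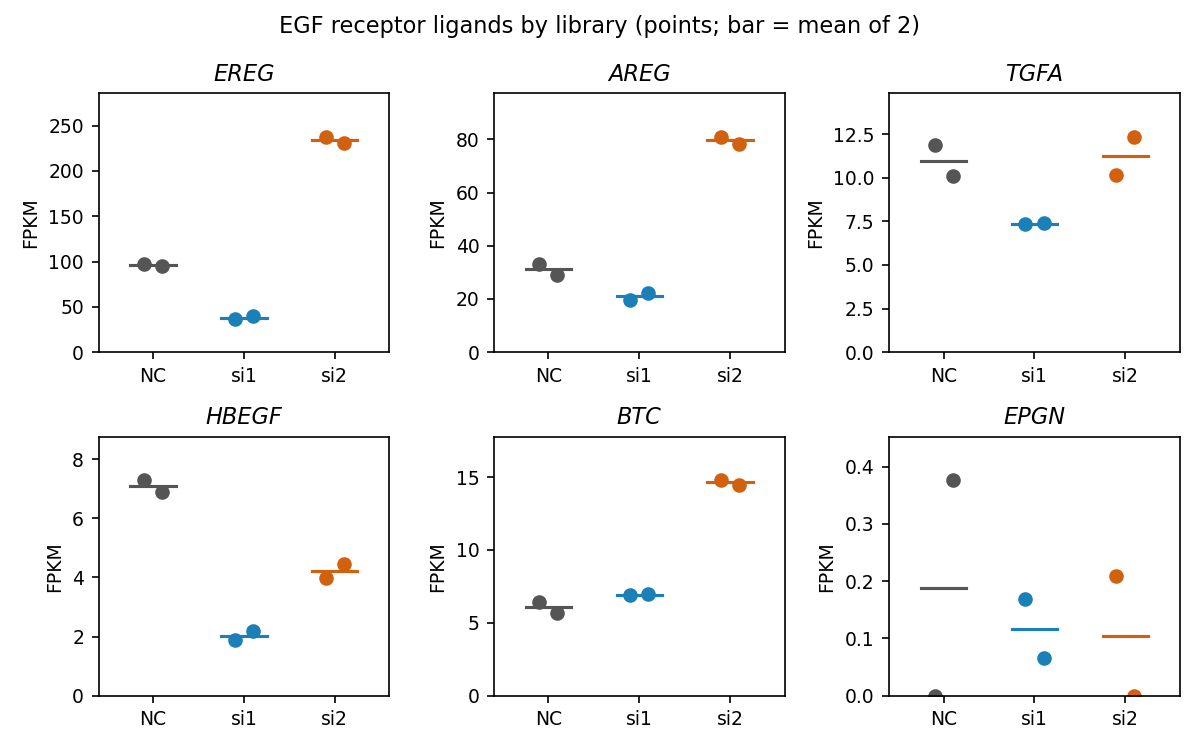
FPKM (vertical axis, from 0, with its own scale in each panel) of the 6 ligand genes in NC, si1 and si2, with 1 point per library and a bar at the mean of 2. EREG and AREG are lowest in si1 and highest in si2, BTC is high only in si2 among these libraries, and HBEGF is highest in NC.

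EREG was the most abundant ligand transcript in every library. In NC the mean levels ran EREG 96.2, AREG 31.2, TGFA 10.98, HBEGF 7.10, BTC 6.07 and EPGN 0.188 FPKM. In si1 the order was EREG, AREG, TGFA, BTC and HBEGF, and in si2 it was EREG, AREG, BTC, TGFA and HBEGF. Neighbours among these 5 did not overlap between libraries within any group. HBEGF was therefore 4th in NC and last of the 5 in both knockdown groups. The 6 ligands summed to 147 and 156 FPKM in NC, 72.6 and 78.9 in si1, and 340.4 and 348 in si2. EREG made up 62.3% and 64.5% of that sum in NC, 50.4% and 50.7% in si1, and 68.4% and 67.8% in si2. HBEGF made up 4.67% and 4.70% in NC and 1.14% and 1.31% in si2.

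EGFR (ENSG00000146648, chr7:55019021-55211628), the receptor for all 6 ligands, was the main ERBB transcript. It stood at 37.9 and 37.5 FPKM in NC, 26.1 and 20.8 in si1, and 37.4 and 36.2 in si2. The si1 libraries lay below the other 4 and differed more from each other than those of NC or si2 (SD 3.71, against 0.282 and 0.856). The log2 difference was −0.67 in si1 and −0.03 in si2 (SE 0.101), the latter not called. The si1 call was kept in all 13 alternatives, at −0.82 to −0.51, including scaling by equal size factors, which could hardly change it. The antisense gene EGFR-AS1, whose reads cannot be told from those of EGFR without strand information, did not exceed 0.174 FPKM.

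ERBB2 (ENSG00000141736, chr17:39687914-39730426), the partner receptor, was at 2.67 and 2.49 FPKM in NC, 3.02 and 3.18 in si1, and 1.94 and 1.9996 in si2. Its groups ran in the order opposite to EREG. Neither difference from NC was called (0.20 in si1 and −0.27 in si2, SE 0.1004), whereas si2 against si1 was (−0.46). Without si2 replicate 1 the value was −0.45 and was not called. ERBB2 overlaps PGAP3, at 1.85 to 2.93 FPKM, and MIEN1, at 10.1 to 12.5 FPKM, both on the other strand. Reads from the shared stretches cannot be told apart without strand information.

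ERBB3 (ENSG00000065361, chr12:56076799-56103505) was at 0.463 and 0.435 FPKM in NC, 0.365 and 0.523 in si1, and 0.231 and 0.278 in si2, from 33 to 80 reads per library. The si2 libraries were the lowest, and NC and si1 overlapped. In NC the mean levels were thus 37.7 FPKM for EGFR, 2.58 for ERBB2 and 0.449 for ERBB3, an order kept in all 6 libraries. ERBB4, the other receptor of the family, did not pass 0.0924 FPKM in any library.

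ERRFI1 (ENSG00000116285, chr1:8004404-8026308) encodes MIG6, which binds the kinase domains of EGFR and ERBB2 and blocks them. It was at 93.7 and 90.0 FPKM in NC, 107 and 109 in si1, and 152 and 148 in si2. Both knockdown groups were above NC, with si2 above si1. The log2 difference was 0.70 in si2 and 0.23 in si1 (SE 0.0531). The si1 call was lost without NC replicate 1 (0.26), without NC replicate 2 (0.20), without si2 replicate 1 or 2 (0.23 each) and without the filter. ERRFI1 differed in the same direction as BTC, and its transcript exceeded that of EGFR in every library.

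**Figure D3:**
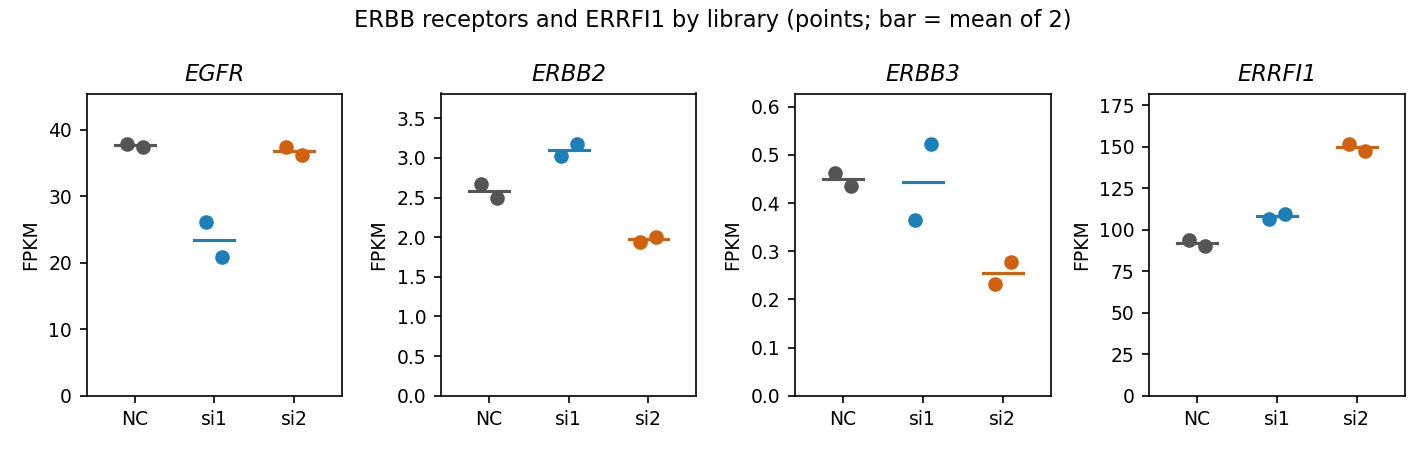
FPKM (vertical axis, from 0, with its own scale in each panel) of EGFR, ERBB2, ERBB3 and ERRFI1 in NC, si1 and si2, with 1 point per library and a bar at the mean of 2. EGFR is low in the 2 si1 libraries, ERBB2 is lowest in si2, and ERRFI1 is highest in si2.

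The other members of the family were scarce. Of EGF, NRG1, NRG2, NRG3, NRG4 and ERBB4, only NRG1, a ligand of ERBB3 and ERBB4, reached a mean of 1 FPKM. NRG1 was at 2.27 and 2.26 FPKM in NC, 1.68 and 1.32 in si1, and 1.47 and 1.48 in si2. It was not called in either comparison with NC (log2 difference −0.39 in si1, adjusted p = 0.0726, and −0.40 in si2, adjusted p = 0.056). EGF, the ligand that gives the receptor its name, stood at 0.675 to 1.04 FPKM, and NRG3 had 0 FPKM throughout. Among 34 other receptor tyrosine kinases, AXL, EPHA2 and MET (the last named after its values were seen) had a higher mean level than EGFR in NC.

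Those kinases did not move together. Among the 15 tested, si1 had 2 higher and 4 lower than NC, and si2 had 2 higher and 7 lower, with medians of 0.04 and −0.23. Of all genes tested, 9.47% were higher and 12.9% lower in si1, and 13.6% and 15.4% in si2. AXL, which can pair with EGFR, had 35.8 ± 1.53 FPKM in si1 and 74.4 ± 2.37 in si2, against 135 ± 0.406 in NC (SD, n = 2). EPHA2, an ephrin receptor, fell by 1.12 in si1 (SE 0.0755) and by 0.29 in si2 on the log2 scale. ROR1 fell by 0.50 in si1 and rose by 0.83 in si2. FGFR4, a fibroblast growth factor receptor, fell by 1.03 in si2 (adjusted p = 0.00384) and was not called in si1 (0.04). Without NC replicate 2 the count of kinases called in si2 was 3 instead of 9.

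Transcripts known to be induced by ERK, the kinase at the end of the RAS cascade, were mostly lower in si1. Among 19 tested, 0 were called higher and 16 lower in si1, with a median log2 difference of −1.03 beside −0.01 over all genes. Of all genes tested, 9.47% were called higher and 12.9% lower in that comparison. In si2, 8 rose and 5 fell (median 0.05), where 13.6% and 15.4% of all genes did. Between the knockdown groups, 17 were higher in si2 and 0 lower (median 0.96), where 19.9% and 18.6% of all genes were. The list was drawn up with earlier results of these libraries known, so its direction is not independent evidence. The 13 calls in si2 were 6 with either NC replicate left out and 5 with si2 replicate 1 left out. The 16 calls in si1 stayed between 14 and 17 with any library left out.

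ETV5, an ETS transcription factor, stood at 19.3 and 18.7 FPKM in NC, 4.66 and 5.78 in si1, and 15.8 and 16.1 in si2. It fell by 1.69 in si1 on the log2 scale (SE 0.0964, adjusted p = 1.31e-04), and the −0.24 in si2 was not called. FOSL1, a subunit of AP-1, fell in both groups, to 44.6 ± 2.67 FPKM in si1 and 84.9 ± 4.79 in si2, against 128 ± 5.93 in NC (SD, n = 2, log2 differences −1.50 and −0.59). CCND1, which encodes cyclin D1, fell from 279 ± 4.61 FPKM to 109 ± 8.99 in si1 (−1.35, SE 0.0646) and was at 250.4 ± 0.698 in si2, not called. ETV4, a relative of ETV5, followed EREG in its order, with 5.59 and 5.93 FPKM in NC, 1.39 and 1.95 in si1, and 9.37 and 8.03 in si2. It fell by 1.35 in si1 (SE 0.126, adjusted p = 7.41e-04) and rose by 0.52 in si2 (adjusted p = 0.0222).

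**Figure D4:**
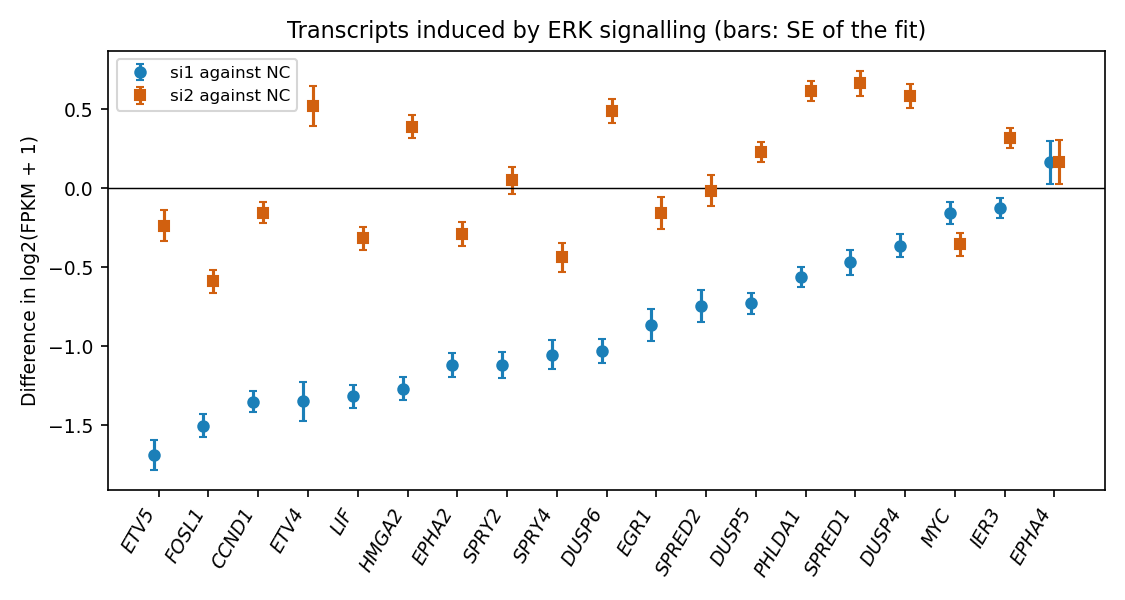
Differences in log2(FPKM + 1) (vertical axis) of the 19 tested transcripts induced by ERK signalling, ordered by si1 against NC (circles), with si2 against NC as squares and bars for the SE of the fit. The si1 values lie below 0 for all but EPHA4, while the si2 values lie on both sides of 0.

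The genes that act on the release of ligands from the membrane, the inhibitor TIMP3 among them, split as well. Among 11 tested, si1 had 2 higher and 5 lower than NC, and si2 had 3 higher and 2 lower (medians −0.11 and 0.01). Over all genes, 9.47% were higher and 12.9% lower in si1, and 13.6% and 15.4% in si2. ADAM15, a metalloprotease, rose to 39.9 ± 0.303 FPKM in si1 and 28.6 ± 0.859 in si2, against 15.8 ± 0.315 in NC (SD, n = 2, log2 differences 1.28 and 0.81, SE 0.0614). ADAM19 fell by 0.67 in si1 and rose by 0.68 in si2, and ADAM8 fell by 0.63 in si1. TIMP3, an inhibitor of ADAM17, rose from 52.6 ± 1.98 FPKM to 139 ± 2.52 in si2 (1.39, SE 0.0596, adjusted p = 6.53e-05) and by 0.20 in si1. ADAM17, the main protease for EREG, AREG, HBEGF and TGFA precursors and named here after its values were seen, fell by 0.47 in si1 (adjusted p = 0.00449). In si2 ADAM17 was not called (0.14). The 5 calls in si2 dropped to 3 without either NC or either si2 replicate.

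Among 21 adaptor and RAS-MAPK genes downstream of the receptor, si1 had 2 higher and 6 lower than NC, and si2 had 2 of each (medians 0.04 and 0.03). Of all genes tested, 9.47% were higher and 12.9% lower in si1, and 13.6% and 15.4% in si2. GRB2, the adaptor that links receptors to RAS, had 37.5 ± 1.2 FPKM in NC and 36.5 ± 0.918 in si2, not called, but 19.5 ± 1.13 in si1 (SD, n = 2). Its si1 difference was −0.91 (SE 0.0683, adjusted p = 3.48e-04). NRAS, a RAS GTPase, fell from 55.5 ± 1.76 FPKM to 21.1 ± 1.91 in si1 (−1.36, SE 0.0744), and ARAF, a RAF kinase, fell by 0.75. NCK1, an adaptor, rose by 0.62 in si1. The 8 calls in si1 were 4 and 3 with NC replicate 1 or 2 left out and 5 with si1 replicate 2 left out, and the 4 calls in si2 dropped to 2 without either NC or either si2 replicate.

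Among 13 genes of the PI3K-AKT arm, si1 had 0 higher and 2 lower than NC, where 9.47% and 12.9% of all genes were. For si2 the counts were 1 higher and 4 lower, where 13.6% and 15.4% of all genes were. The medians were −0.06 and 0.22, so in si2 the median and the balance of calls differ in sign. PHLPP2, a phosphatase of AKT, fell in both (−0.74 and −0.80, SE 0.146). PIK3CD, a catalytic subunit, fell by 0.70 in si2, PIK3R3, a regulatory subunit, by 0.58 and AKT2 by 0.55. The 2 calls in si1 were 0 or 1 in each fit that left out a library, whichever it was. The 5 calls in si2 became 2 without NC replicate 1, 2 without NC replicate 2 and 3 without si2 replicate 1.

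Among 24 genes of receptor endocytosis and degradation, si1 had 1 higher and 8 lower than NC, and si2 had 5 higher and 3 lower (medians −0.20 and 0.00). Over all genes, 9.47% were higher and 12.9% lower in si1, and 13.6% and 15.4% in si2. CBL, the ubiquitin ligase that marks EGFR for degradation, had 2.63 ± 0.69 FPKM in si1 against 4.35 ± 0.0651 in NC (SD, n = 2, log2 difference −0.57, adjusted p = 0.0263). The si2 libraries were at 3.29 ± 0.233, not called. UBASH3B, a phosphatase that acts on EGFR, fell by 1.02 in si1, and SH3KBP1, a CBL adaptor, by 0.55. STAM, a sorting protein of endosomes, fell by 0.24 in si1 and by 0.79 in si2. The 9 calls in si1 became 2 without either NC replicate and 5 without si1 replicate 2. The 8 calls in si2 became 2 without NC replicate 1, 1 without NC replicate 2, 3 without si2 replicate 1 and 4 without si2 replicate 2.

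EREG, AREG, BTC and EPGN share a stretch of chromosome 4, with AREG starting 80.0 kb and BTC 430 kb from the start of EREG. In the window of 1000 kb on either side of that start, 15 of 42 annotated genes were tested, 12 of them outside the 10 genes described. In si2 against NC 6 of these 12 rose and 0 fell, where 13.6% and 15.4% of all genes did. In si1 2 rose and 2 fell, where 9.47% and 12.9% of all genes did. In si2 against si1 8 were higher and 0 lower, where 19.9% and 18.6% of all genes were. This window was chosen after the values were seen. Its nearest chemokine genes to EREG, CXCL2 and CXCL3, rose in si2 by 0.84 (SE 0.0698) and 0.78 (SE 0.0918) on the log2 scale. In si1 they were not called (0.20 and −0.20), unlike EREG. Farther away, CXCL1, CXCL5 and CXCL6 rose in si2 by 1.64, 1.21 and 1.03, and CXCL8 was not called (0.13). In si1, CXCL1 rose by 0.84 and CXCL6 by 0.64, CXCL8 fell by 0.72 and CXCL5 was not called (−0.04). The calls were not confined to CXCL genes. An antisense gene between AREG and BTC rose in si2 by 0.68 and was not called in si1 (−0.01). PARM1 fell in si1 by 0.92 and was not called in si2 (−0.02). Both were picked after their values were seen.

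**Figure D5:**
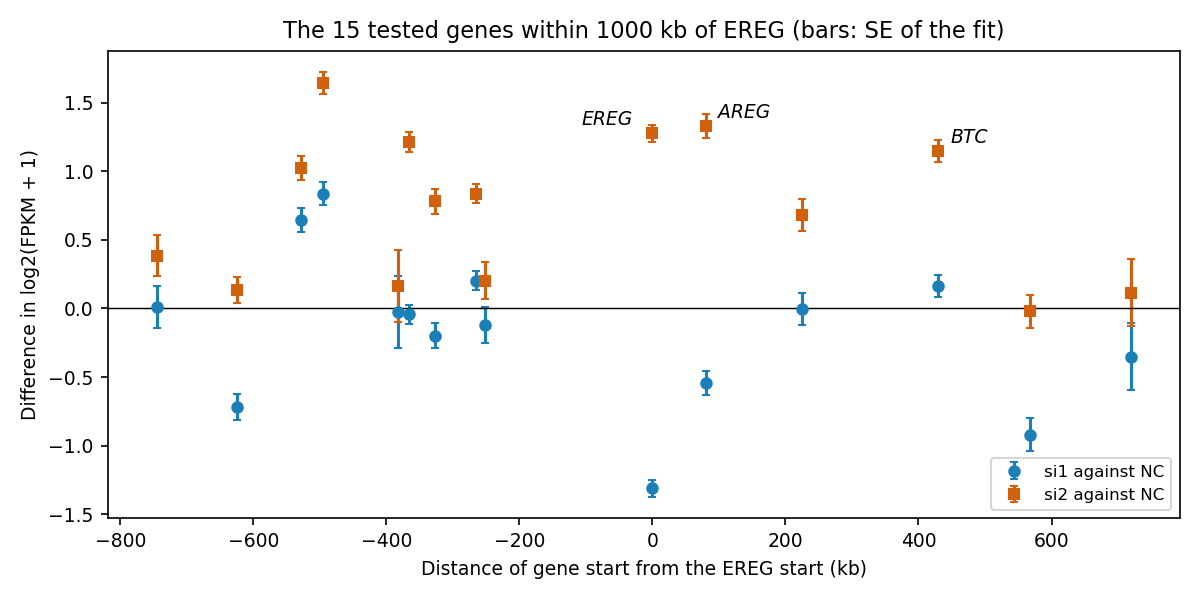
Differences in log2(FPKM + 1) (vertical axis) of the 15 tested genes within 1000 kb of EREG, by distance of their start from the EREG start (horizontal axis, kb), for si1 against NC (circles) and si2 against NC (squares), with bars for the SE of the fit. In si2 all but 1 of the values lie above 0, whereas in si1 EREG has the lowest value.

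The genes most like EREG, AREG and EGFR were taken by Pearson's r of log2(FPKM + 1) over the 6 libraries, among 2033 protein-coding genes with an SD of at least 0.3. The 6 points form 3 groups of 2, so a high r says little more than that the group means have the same spacing. For EREG they were NT5E, CTGF and ITGA6 (r = 0.999 each). CTGF had group means of 37.2, 14.2 and 104 FPKM for NC, si1 and si2. For AREG they included PRKAA1 (0.997) and ZFP62 (0.996), and for EGFR they were NAV1 (0.997), SPRED2 (0.9965) and TNRC6A (0.995). SPRED2, an inhibitor of the RAS cascade, had group means of 17.0, 9.80 and 16.8 FPKM, low in si1 like EGFR.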

How the data were processed

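RNA from 6 libraries of SK-MES-1 cells was sequenced. The authors deposited FPKM per gene with gene lengths. Per the submitters' processing notes, coordinates are on hg38. Aligner, counting program, strandedness and annotation: not given in the sources used here. Starts and ends of the 58735 genes are those of GENCODE release 29. Reads were recovered from FPKM times length, which fell on whole steps within 0.001 reads for 100% of values. Median-of-ratios size factors of the deposited FPKM were equal (1.01) in all 6 libraries, so the alternative that scales by them changes almost nothing.

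Values were tested as log2(FPKM + 1) with limma 3.58.1 in R 4.3.3, where the mean over 6 libraries reached 1 FPKM. The fit had 1 coefficient per group over all 6 libraries, 3 residual and 4.03 prior degrees of freedom, and variances trended on the mean. Tests were two-sided. Rose, fell and called mean an adjusted p under 0.05 (Benjamini-Hochberg, over every gene tested). Log2 differences are on the log2(FPKM + 1) scale and carry limma's standard error (SE). The fit was also run on simulated reads, with the same spread setting for every gene and independent replicates. Neither is known to hold for these libraries, so that run concerns the working of the fit and not the calls given here. Limits for 0 reads are 3 reads and cover counting error only.

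The members and gene lists were chosen with earlier results of these data known. The text names the 10 members, KRT6A, cell markers, up to 4 tested genes per list with the largest difference from NC, and the 3 genes most like EREG, AREG and EGFR, of which 1 is not reported here. Others are said to be chosen after their values were seen, as were all the CXCL genes. Alternatives were the pseudocount, filter and scaling, a replicate block, voom weights and leaving out each library.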

Additional observations from a re-analysis of the deposited data

Results flagged for a closer look

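Genes whose si1 libraries all lay on one side of NC and whose si2 libraries all lay on the other are given here. Among all 12319 genes tested, 2192 (17.8%) did so. For the members the difference between si2 and si1, called for all 3 named here, is a description and no independent test, since they were chosen with it known. It was 2.58 on the log2 scale for EREG, 1.87 for AREG and −0.46 for ERBB2. Among the pathway genes named, limma's comparison of si2 with si1 gave 1.35 for ADAM19 (adjusted p = 1.79e-04), 1.499 for NRAS (adjusted p = 4.30e-05), 0.75 for SH3KBP1 (adjusted p = 4.00e-04), 1.35 for UBASH3B (adjusted p = 2.72e-04), 1.87 for ETV4 (adjusted p = 1.14e-04) and 1.33 for ROR1 (adjusted p = 7.28e-05). These pathway genes were picked for large differences from NC and listed here because their groups lay on opposite sides of it. That choice itself favours a wide difference between si2 and si1, so the adjusted p-values are no independent support for it. ADAM17, CXCL3 and CXCL8, named after their values were seen, differed by 0.61, 0.98 and 0.85. The genes picked for likeness to EREG, whose spacing the choice fixes, differed by 1.14 (NT5E), 2.80 (CTGF) and 1.32 (ITGA6), and those picked for likeness to AREG by 0.71 (PRKAA1) and 0.91 (ZFP62). Among the cell type markers named, si2 minus si1 was 1.01 for TP63, −0.31 for VIM and −1.03 for KRT19. KRT8, above NC in si1 and below it in si2, had an si2 mean of 0.688 times its si1 mean. For NRAS, SH3KBP1 and UBASH3B the si2 libraries lay above NC, but si2 against NC was not called.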

How the results depend on the processing

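Over 306 member values recomputed under alternatives, 293 kept their side of the threshold, 12 were no longer called and 1 was newly called. The alternatives include scaling by size factors that were equal (1.01) in all 6 libraries. That setting could hardly move a value, so its share of the 293 carries no weight. The newly called value was ERBB2 in si2 against NC with voom weights on the recovered reads (−0.38). Of the values called in either fit, 0 reversed. Values called in neither fit could change sign, and TGFA in si2 against NC ran from −0.096 to 0.161. Without a filter, 1414 genes were called in si1 against NC instead of 2758, 1785 in si2 against NC instead of 3578, and 3130 in si2 against si1 instead of 4743. With a library left out, these were 1093 to 2429, 1491 to 4029 and 2938 to 4337, and a group left with 1 library is then assumed to vary like the others. Scaling to equal total reads, added like voom after the data were seen, moved no list count by over 1.5 times. A count test planned for the recovered reads was not run.

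For the pathway lists, calls without a filter were 4 in si1 and 2 in si2 against NC for adaptors and RAS-MAPK, 7 in si2 for ERK-induced transcripts, 3 in si2 for shedding, 5 in si2 for other kinases, 0 in si1, 2 in si2 and 2 in si2 against si1 for PI3K-AKT, and 4, 3 and 6 for endocytosis. With a filter at 5 FPKM they were 1, 3 and 2 for PI3K-AKT, and 5 in si2 against si1 for other kinases. voom called 1 and 1 for the other family members in si1 and si2 against NC, 6 and 10 for PI3K-AKT, and 13 in si2 for endocytosis. Leaving out a library gave, in the order si1 and si2 against NC and si2 against si1, 3 to 6, 2 to 3 and 6 to 11 for adaptors and RAS-MAPK, 14 to 17, 5 to 15 and 17 to 19 for ERK-induced transcripts, 5 to 7, 3 to 5 and 5 to 7 for shedding, 4 to 5, 3 to 10 and 6 to 9 for other kinases, 0 to 1, 2 to 7 and 2 to 6 for PI3K-AKT, 2 to 7, 1 to 10 and 5 to 11 for endocytosis, and 0, 0 to 1 and 0 for the other family members.

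Replicate numbers are shared between groups, but libraries with the same number did not deviate together over all genes tested (correlations −0.052, 0.0503 and −0.0577). These values show no wide shared shift. They cannot show whether a shared culture or batch moved some of the genes. With the replicate block, calls were 2335, 3121 and 4314 over all genes, 2 in si2 against NC for adaptors and RAS-MAPK, 1 in si1 for PI3K-AKT and 5 in si2 for endocytosis. Depth limits EPGN, whereas ERBB3, at 33 to 80 reads per library, was left out of the fit by the filter of 1 FPKM.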
